A study of Mus musculus with 17 samples.

Results

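Serpin genes were followed across 17 mouse RNA-seq samples of fibroblasts, embryonic stem cells and reprogrammed cells. A gene was taken when its symbol starts with Serpin and it reached an FPKM (fragments per kilobase of transcript, scaled to library size) of at least 1 in at least 1 sample. Of 28670 genes in the tables, 60 carried such a symbol and 28 met the level. The 28 comprised 8 of 23 Serpina genes, 14 of 26 Serpinb genes, and 6 genes of the other clades. Just inside the limit stood Serpina1c, whose highest sample had 1.04 FPKM, and just outside stood Serpinb7 with 0.898 FPKM. Of the 32 genes below the limit, 3 had 0 FPKM in every sample. All 28 passed the low-count filter of the tests. The genes were thus selected on their highest FPKM. Because that value chose them, their presence is not a result, and the counts below are read against all genes tested.

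Serpins are mostly protease inhibitors: the target protease cuts an exposed loop of the serpin, which then changes shape and holds the enzyme in a covalent complex. Clade letters follow descent. Most Serpina, Serpine, Serpinf, Serping and Serpini proteins are secreted and act on proteases of blood, matrix and nervous tissue, whereas most Serpinb proteins stay inside the cell, where they meet granzymes, cathepsins and other proteases. A few members, such as the collagen chaperone Serpinh1, do not inhibit proteases at all, and in mice several single human genes are represented by clusters of near-identical copies.

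The samples formed 7 groups, of which 3 lacked the pluripotency factor Nanog. The lines without Nanog or short of full reprogramming were Nanog -/- iPSC clone G2 (2 samples), Nanog -/- iPSC clone G5 (2), Nanog -/- ESC (2), all 129/B6 (v6.5) at passage 6, and the wild-type (WT) partially reprogrammed clone B1, called piPSC (2; 129/B6 (v6.5), passage 6). The other groups were WT MEF, fibroblasts of C57/B6 embryos at passage 2 (2), WT iPSC (3; the first at passage 6, the others at passages 10 to 15) and WT ESC (4; passages 10 to 15). WT iPSC and WT ESC each mix strains: 1 WT iPSC and 2 WT ESC were 129/B6 (v6.5) and carry sample codes starting with AC, while 2 WT iPSC and 2 WT ESC were C57/B6 and carry codes starting with JI. The 11 AC samples are all 129/B6 and the 6 JI samples all C57/B6, so strain and code cannot be told apart. Nanog -/- fibroblasts came from embryos made by blastocyst injection and were sorted for GFP. They were reprogrammed with retroviruses for Klf4, Oct4 and Sox2, in some cases also c-Myc, which the resulting clones therefore carry. Picked colonies and the parental Nanog -/- ESC were kept on feeder cells in 2i and LIF, and MEF in medium with 10% serum. Each Nanog -/- iPSC group and the piPSC group is 1 clone, and the labels do not say whether replicates are separate cultures, so that the spread behind each p-value may be technical. The comparisons ask how the cell state and the loss of Nanog relate to Serpin RNA.

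Serpinb9 and Serpina1 stand in arrays of copies, and their promoters are shown because the copies moved together in the results below. Among the 28 genes, 11 lie on chromosome 13 (Serpinb1a, Serpinb6a to Serpinb6c, Serpinb9 and Serpinb9b to Serpinb9g), 8 on chromosome 12 (the Serpina1 and Serpina3 copies) and 4 on chromosome 1 (Serpine2, Serpinb5, Serpinb2 and Serpinb8). RefSeq promoters of GRCm38.p6, from 250 bases before to 50 after the start, were at hand for 24 of the 28. The promoters of Serpinb9d, Serpinb9e, Serpinb9f and Serpinb9g were identical at 87.3% to 94.7% of 300 bases in pairwise alignment, while that of Serpinb9b matched them at 35.3% to 38.7%. In the next lines, capitals mark TGACGT, the core letters of a cyclic AMP response element, which were looked for after the sequences had been read.
Serpinb9d promoter, chr13:33192705-33193004, plus strand: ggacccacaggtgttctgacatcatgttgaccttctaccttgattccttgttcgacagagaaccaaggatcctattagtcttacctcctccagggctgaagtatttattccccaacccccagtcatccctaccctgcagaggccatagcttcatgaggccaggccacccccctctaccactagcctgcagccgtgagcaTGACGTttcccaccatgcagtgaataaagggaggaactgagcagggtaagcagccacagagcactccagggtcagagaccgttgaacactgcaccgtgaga
Serpinb9e promoter, chr13:33249358-33249657, plus strand: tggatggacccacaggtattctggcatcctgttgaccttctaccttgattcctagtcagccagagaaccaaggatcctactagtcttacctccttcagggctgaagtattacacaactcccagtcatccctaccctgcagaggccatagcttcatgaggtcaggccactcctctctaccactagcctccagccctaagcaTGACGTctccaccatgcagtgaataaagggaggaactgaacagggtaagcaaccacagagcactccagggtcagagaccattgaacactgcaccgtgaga
Serpinb9f promoter, chr13:33323827-33324126, plus strand: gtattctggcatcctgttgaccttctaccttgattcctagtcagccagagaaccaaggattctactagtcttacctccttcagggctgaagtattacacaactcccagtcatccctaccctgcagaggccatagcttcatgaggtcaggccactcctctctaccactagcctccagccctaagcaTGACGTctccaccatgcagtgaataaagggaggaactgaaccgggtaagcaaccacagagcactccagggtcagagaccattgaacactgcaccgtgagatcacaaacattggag
Serpinb9g promoter, chr13:33484540-33484839, plus strand: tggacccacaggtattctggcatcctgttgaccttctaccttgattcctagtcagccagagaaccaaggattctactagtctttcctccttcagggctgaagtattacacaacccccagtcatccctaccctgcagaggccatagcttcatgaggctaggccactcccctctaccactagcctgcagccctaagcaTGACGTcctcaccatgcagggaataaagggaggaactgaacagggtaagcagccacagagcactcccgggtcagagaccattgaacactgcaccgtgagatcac

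TGACGT, searched on both strands, was found in promoters of 5 of the 24 genes, Serpinb9c to Serpinb9g, and in 7.51% of 32851 RefSeq promoters of this length. The Serpina1 promoters were identical at 77% to 92% of 300 bases. In the next lines, capitals mark GTTAAT, letters of the HNF1 site known from liver promoters, and TGACTCA, an AP-1 site.
Serpina1b promoter, chr12:103738140-103738439, minus strand: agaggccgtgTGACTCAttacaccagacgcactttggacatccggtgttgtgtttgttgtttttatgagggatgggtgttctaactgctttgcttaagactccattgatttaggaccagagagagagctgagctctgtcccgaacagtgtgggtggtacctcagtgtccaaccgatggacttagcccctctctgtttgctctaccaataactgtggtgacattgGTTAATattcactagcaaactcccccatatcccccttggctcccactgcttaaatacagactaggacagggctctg
Serpina1e promoter, chr12:103956848-103957147, minus strand: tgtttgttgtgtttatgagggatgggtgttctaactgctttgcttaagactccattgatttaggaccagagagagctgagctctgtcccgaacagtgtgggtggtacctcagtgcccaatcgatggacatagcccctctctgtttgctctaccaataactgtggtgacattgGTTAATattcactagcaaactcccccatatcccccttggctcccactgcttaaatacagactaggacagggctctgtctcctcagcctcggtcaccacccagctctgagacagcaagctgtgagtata
GTTAAT, on either strand, was found for Serpina1b, Serpina1c, Serpina1d, Serpina1e and Serpinb8 and in 7.1% of all promoters. TGANTCA was found for Serpina1b, Serpina1c, Serpina1d, Serpinb2, Serpinb5 and Serpinb8 and in 7.81% of all promoters. No match of one motif overlapped a match of another in these promoters. The letters are a description of the windows.

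The libraries held 7.80 M to 43.5 M assigned fragments. Nanog RNA was read at 27.2 to 49.5 FPKM in the 3 Nanog -/- groups, against 568 to 762 FPKM in the WT ESC and WT iPSC of the AC samples and 270 to 323 FPKM in those of the JI samples; the labels do not say which part of the gene is deleted. Markers of other cells moved with the groups. The summed FPKM of 15 fibroblast markers was 4875 to 4931 in WT MEF, 1569 to 1656 in clone G2, 662 to 665 in clone G5, 1036 to 1056 in Nanog -/- ESC, 68.4 to 134 in piPSC, 101 to 340 in WT iPSC and 95.6 to 241 in WT ESC. The sum of 12 primitive and visceral endoderm markers was 98.1 to 176 FPKM in the Nanog -/- groups and 6.04 to 30.9 FPKM in WT iPSC and WT ESC, with Afp under 0.1 FPKM on average in both clones. The sum of 10 trophoblast markers was 80.5 to 154 FPKM in the Nanog -/- groups and 6.54 to 40.9 FPKM in WT iPSC and WT ESC, with Prl3d1 under 0.1 FPKM in all 7 groups. WT MEF also had 607 to 613 FPKM of 7 macrophage markers, against 13.1 to 97.3 FPKM in WT ESC. The sum of 10 pluripotency markers was 0.896 and 0.902 FPKM in WT MEF and at least 2637 FPKM in every other sample. In piPSC against WT iPSC, 8 of 9 tested pluripotency markers fell and 1 rose, where 41.2% of all genes fell and 27.5% rose. In bulk RNA, more cells of a type and more RNA per cell cannot be told apart.

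Serpin RNA was most abundant in fibroblasts and least in the piPSC clone. Serpin genes took 1.16% to 1.18% of assigned fragments in WT MEF, 0.151% to 0.155% in clone G2, 0.122% to 0.129% in clone G5, 0.109% to 0.110% in Nanog -/- ESC, 0.0342% to 0.0346% in piPSC, 0.0581% to 0.0754% in WT iPSC and 0.0390% to 0.0804% in WT ESC. In all Nanog -/- groups and in WT ESC and WT iPSC the collagen chaperone Serpinh1 had the largest mean share, from 23.4% in clone G5 to 41.0% in Nanog -/- ESC. The group with the highest mean FPKM was WT MEF for 6 genes, piPSC for 7, clone G2 for 6, clone G5 for 7 and WT iPSC for 2, and it was WT ESC or Nanog -/- ESC for none. By mean FPKM, Serpina1b to Serpina1e peaked in piPSC, the 4 Serpina3 genes in clone G2 and Serpinb9b to Serpinb9g in clone G5. Serpinb9 itself peaked in WT MEF, at a mean of 6.52 FPKM. Serpinb6a, Serpinb6b and Serpinb6c peaked in WT iPSC, WT MEF and clone G5. For Serpina3g the samples of clone G2 and WT MEF overlapped. The genes were chosen on their highest FPKM, and the numbers of genes by highest group were not set against all genes.

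**Figure D1:**
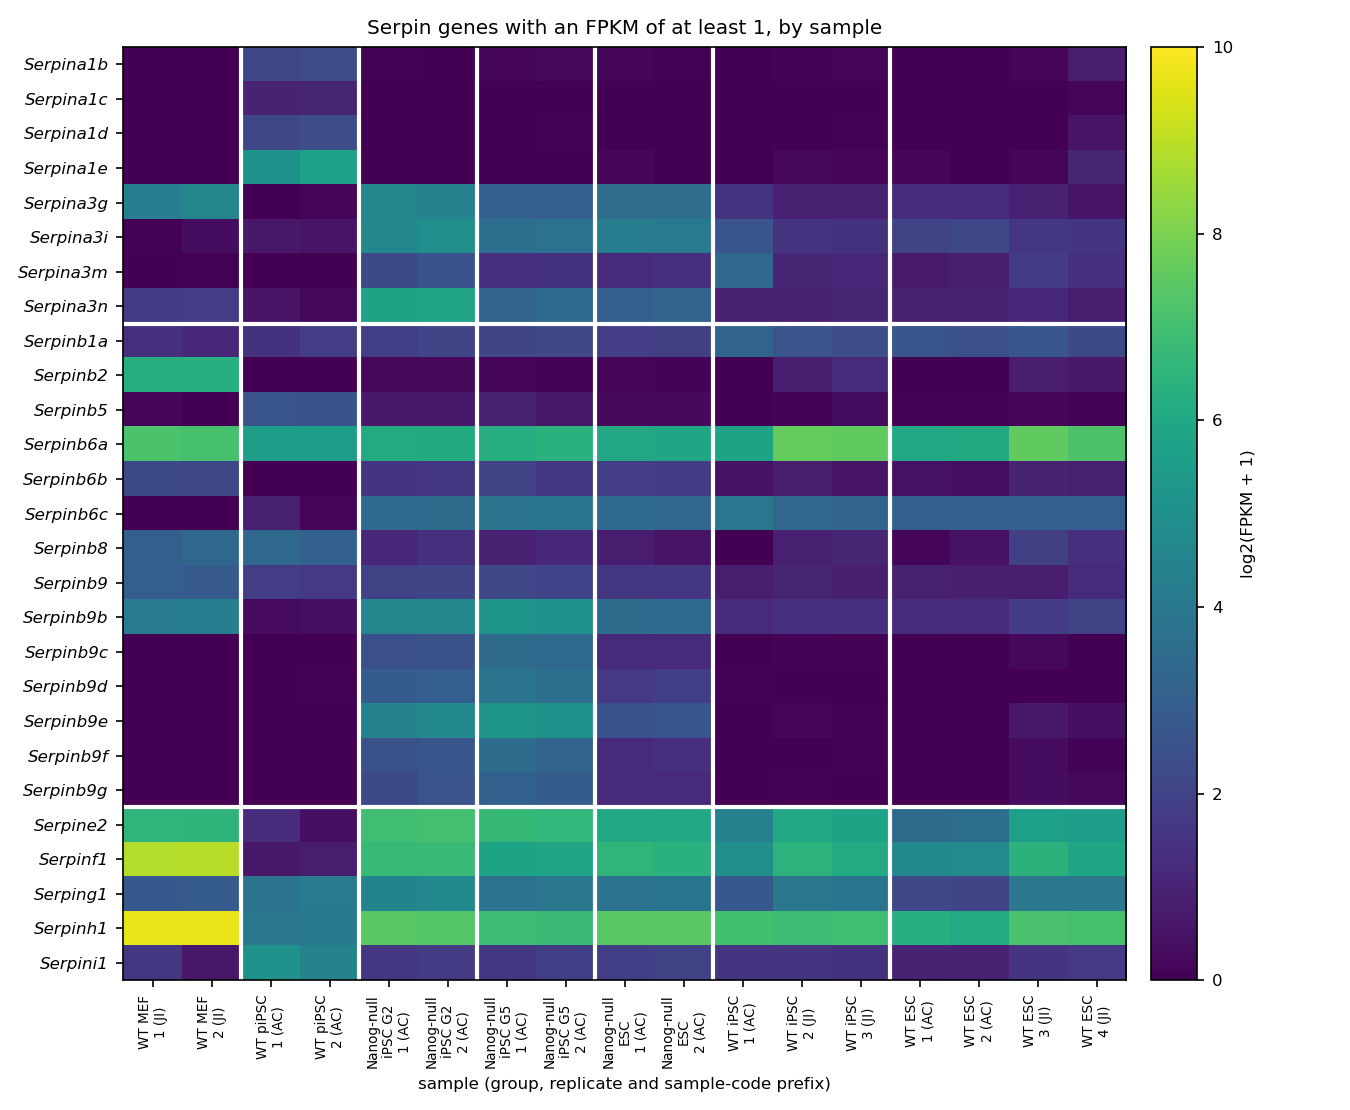
Heat map of log2(FPKM + 1) for 27 Serpin genes (rows, by clade) in the 17 samples (columns, by group, replicate and sample code prefix); white lines part the groups and set the Serpina and Serpinb genes off from the others. Serpinh1 at 788 and 811 FPKM and Serpinf1 at 462 and 485 FPKM are bright in WT MEF, the Serpinb9c to Serpinb9g rows are lit in the 6 Nanog-null samples, and the Serpina1 rows in the 2 piPSC samples.

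Most Serpin genes rose in the cells without Nanog. Serpinb9c to Serpinb9g met the limit of 1 FPKM in Nanog -/- samples only, so the choice of genes favored their rise. They enter the counts and medians of this paragraph. In Nanog -/- ESC against WT ESC, 19 of the 28 genes rose and 1 fell at an adjusted p under 0.05 (edgeR quasi-likelihood test with Benjamini-Hochberg adjustment over all genes tested, here and throughout unless another tool is named), where 30.3% of 17446 genes tested rose, 27% fell and 57.2% were called. Their median log2 change was 1.87, against 0.0242 over all genes. In the 2 Nanog -/- iPSC clones against WT iPSC, 20 rose and 1 fell, where 27.9% of all genes rose, 31.8% fell and 59.8% were called, and the median log2 change was 2.15, against -0.0556 over all genes. In both comparisons the gene that fell was Serpinb1a, an inhibitor of neutrophil elastase. It had 2.66 to 3.55 FPKM in the clones and 2.48 to 2.68 FPKM in Nanog -/- ESC, against 4.19 to 8.32 FPKM in WT iPSC and 3.68 to 5.36 FPKM in WT ESC, with no overlap. Its log2 change was -1.03 ± 0.23 (SE) in ESC (adjusted p = 0.00132) and -1.15 ± 0.21 in iPSC (adjusted p = 1.8e-04). The counts were 21 in ESC and 21 in iPSC among AC samples alone, where WT iPSC is 1 sample. Without a term for the sample code they were 13 and 13.

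**Figure D2:**
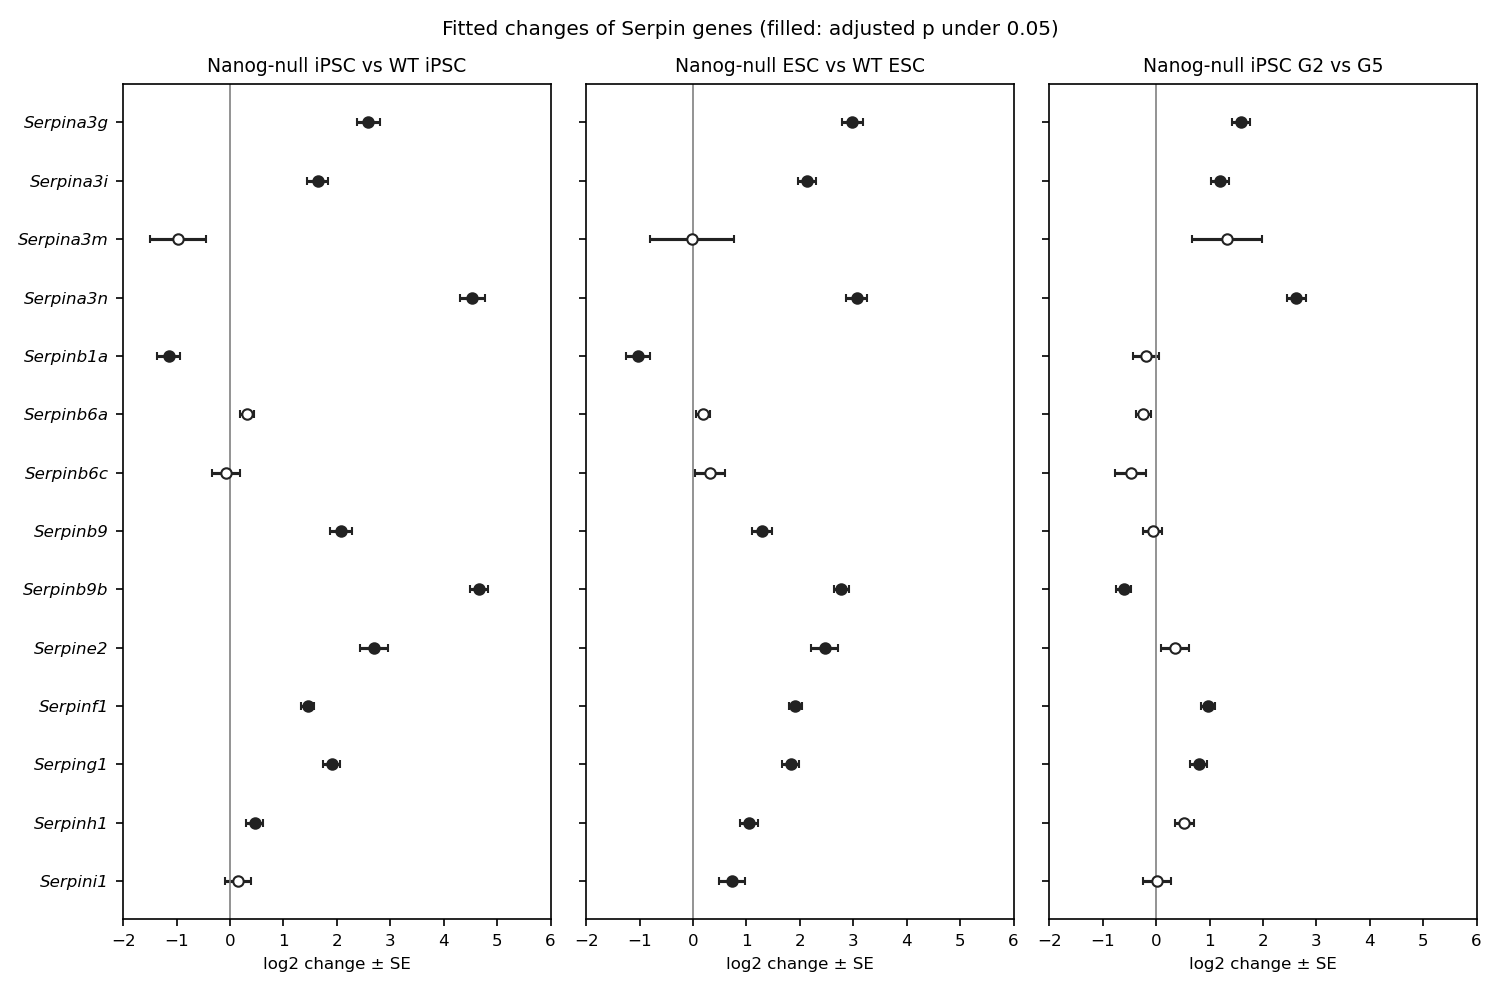
Log2 changes with their standard errors (x axis) of 14 Serpin genes (rows) in Nanog-null iPSC against WT iPSC, Nanog-null ESC against WT ESC, and Nanog-null iPSC clone G2 against clone G5. Filled points have an adjusted p under 0.05. Genes whose highest sample was under 5 FPKM are left out, as are Serpina1e, Serpinb2, Serpinb8 and Serpinb9c to Serpinb9g. Serpina3n stands at 4.53 and 3.07 in the Nanog-null comparisons and at 2.62 between the clones, and Serpinb1a is negative at -1.15 and -1.03.

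Serpinb9 copies c to g were read in the cells without Nanog and hardly at all in the others. Serpinb9 inhibits granzyme B, the death-inducing protease of killer lymphocytes, and the neighbouring copies Serpinb9b to Serpinb9g are mouse relatives of it. Serpinb9e (ENSMUSG00000062342), the copy of c to g with the highest FPKM, had 20.8 and 24.4 FPKM in clone G2, 38.4 and 33.8 FPKM in clone G5 and 4.70 and 5.24 FPKM in Nanog -/- ESC. It had 0.0181 FPKM in the AC sample of WT iPSC, 0.107 and 0.0470 in its JI samples, 0 and 0.0235 in WT ESC of code AC and 0.616 and 0.320 in those of code JI. It had 0 FPKM in both WT MEF samples and 0 and 0.0173 FPKM in piPSC. All 6 Nanog -/- samples lay above all 11 WT samples.

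Serpinb9d had 6.51 and 6.92 FPKM in clone G2, 13.4 and 11.7 FPKM in clone G5 and 2.20 and 2.64 FPKM in Nanog -/- ESC. It had 0.0293 FPKM in the AC sample of WT iPSC, 0.0281 FPKM in 1 piPSC sample and 0 FPKM in the other 9 WT samples. Copies c, f and g kept the same order of groups, with 4.45 to 4.57, 4.58 to 5.44 and 3.70 to 4.94 FPKM in clone G2, 9.70 to 10.0, 8.38 to 10.7 and 6.67 to 7.68 FPKM in clone G5, and 1.27 to 1.28, 1.29 to 1.54 and 1.31 to 1.34 FPKM in Nanog -/- ESC. Their highest values in any WT sample were 0.153, 0.247 and 0.246 FPKM, each in WT ESC 3. The 5 copies did not overlap between the Nanog -/- samples and the WT samples. They met the limit of 1 FPKM in Nanog -/- samples only, so this separation follows in part from how they were chosen. How many of all genes separate these samples was not counted.

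In fragments, Serpinb9c had 154 in Nanog -/- ESC and 0 in the AC samples of WT ESC, which makes it at least 37.3-fold higher when 3 fragments over the WT samples stand as the floor. By the same floor Serpinb9d was at least 51.1-fold, Serpinb9f at least 48.2-fold and Serpinb9g at least 44.1-fold higher. Serpinb9e had 695 fragments against 1, a ratio of 505 with a 95% counting interval of 90.7 to 19950. All 5 passed the test, with adjusted p from 1.7e-09 for Serpinb9e to 1.2e-06 for Serpinb9d. In the clones against the AC sample of WT iPSC, Serpinb9c was at least 128.5-fold and Serpinb9f at least 138.5-fold higher, and the ratio of Serpinb9e was 1685 (interval 302.5 to 66560). The adjusted p of the 5 copies lay between 1.4e-10 and 5.9e-07 in that comparison. Without WT iPSC 1, Serpinb9d has no WT iPSC fragment left and its adjusted p is 1. These intervals and floors cover counting error only.

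Serpinb9b was the copy that fibroblasts also used. It had 22.5 and 23.2 FPKM in clone G2, 37.1 and 33.0 FPKM in clone G5, 10.5 and 9.81 FPKM in Nanog -/- ESC, 16.7 and 18.6 FPKM in WT MEF and 0.230 and 0.293 FPKM in piPSC. WT iPSC had 1.29, 1.61 and 1.69 FPKM and WT ESC 1.27, 1.50, 2.45 and 3.13 FPKM. It rose by 2.78 ± 0.15 on the log2 scale in Nanog -/- ESC against WT ESC (adjusted p = 6.2e-10; 2.87 in AC samples alone). In the clones against WT iPSC its log2 change was 4.66 ± 0.17 (adjusted p = 1.1e-11; 4.49 in AC samples alone). Serpinb9 itself stayed between 1.97 and 3.32 FPKM in the Nanog -/- samples, against 0.713 to 1.34 FPKM in WT iPSC and WT ESC and 6.19 to 6.84 FPKM in WT MEF, and it rose in both Nanog -/- comparisons, by 1.29 ± 0.19 in ESC (adjusted p = 2.9e-05) and 2.07 ± 0.20 in iPSC (adjusted p = 3.9e-07).

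The 5 copies c to g were at 0 FPKM in both WT MEF samples. The fibroblast, endoderm and trophoblast marker sums were higher in the Nanog -/- groups than in WT iPSC and WT ESC, as given above. Their part in the Serpinb9 result was not tested. Shared sequence limits how far single copies can be told apart. In GENCODE M21 transcripts, 78.7% of the 50-base words of Serpinb9f, 54.8% of Serpinb9g, 30.8% of Serpinb9d, 28.4% of Serpinb9e and 18% of Serpinb9c also occur in another gene, against 0.478% for Serpinb9b and 0.378% for Serpinb9. The largest partner of Serpinb9f and Serpinb9g was Gm11397, itself at most 0.0533 FPKM. The sum of copies b to g was 62.5 to 69.4 FPKM in clone G2, 103 to 117 FPKM in clone G5, 21.3 to 21.8 FPKM in Nanog -/- ESC, 1.35 to 1.84 FPKM in WT iPSC and 1.27 to 3.71 FPKM in WT ESC, which again leaves the Nanog -/- samples above the WT iPSC and WT ESC samples.

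**Figure D3:**
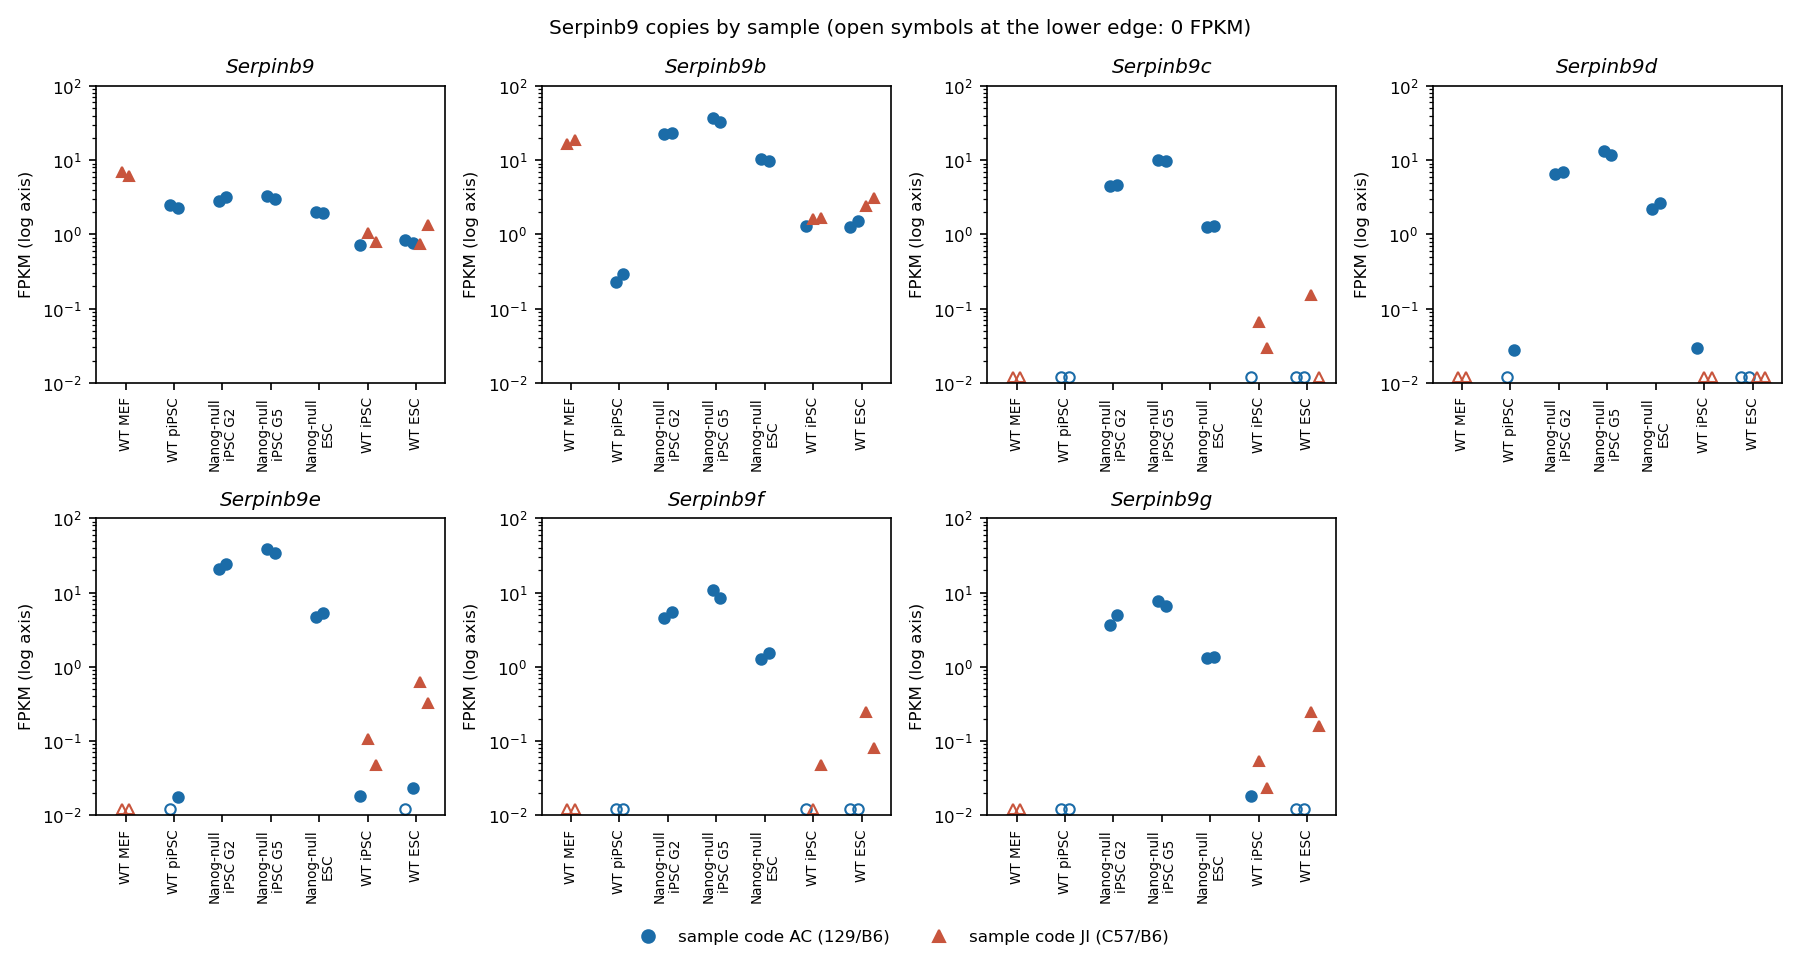
FPKM (log axis) of Serpinb9 and its copies b to g in each sample by group; circles are AC (129/B6) and triangles JI (C57/B6) samples, and open symbols at the lower edge are 0 FPKM. For copies c to g the 6 Nanog-null samples lie above every WT sample, and Serpinb9b is also high in WT MEF at 16.7 and 18.6 FPKM.

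Of the 4 antichymotrypsin-like Serpina3 genes, 3 also rose without Nanog, and all 4 had their highest group mean in clone G2. Serpina3n, a secreted inhibitor whose targets include granzyme B, had 53.9 and 56.2 FPKM in clone G2, 8.37 and 9.64 FPKM in clone G5 and 7.19 and 8.67 FPKM in Nanog -/- ESC. It had 0.917, 0.987 and 1.06 FPKM in WT iPSC, 1.01, 0.933, 1.19 and 0.738 FPKM in WT ESC, 2.45 and 2.54 FPKM in WT MEF and 0.422 and 0.192 FPKM in piPSC. Every Nanog -/- sample stood above every WT sample, the fibroblasts included. The log2 change was 4.53 ± 0.24 in the clones against WT iPSC (adjusted p = 4.3e-10; 4.63 in AC samples alone) and 3.07 ± 0.20 in Nanog -/- ESC against WT ESC (adjusted p = 3.9e-09; 3.03 in AC samples alone).

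Serpina3i had 24.0 and 29.4 FPKM in clone G2, 11.4 and 12.5 FPKM in clone G5, 17.2 and 16.2 FPKM in Nanog -/- ESC, 0.0543 and 0.273 FPKM in WT MEF, 0.625 and 0.478 FPKM in piPSC, 5.25, 1.92 and 1.76 FPKM in WT iPSC and 3.18, 3.55, 2.06 and 1.87 FPKM in WT ESC. The Nanog -/- samples did not overlap the rest. It rose by 1.64 ± 0.19 in the clones against WT iPSC (adjusted p = 2.2e-06) and by 2.13 ± 0.18 in Nanog -/- ESC against WT ESC (adjusted p = 7.2e-08). Serpina3g, an intracellular inhibitor of lysosomal cathepsins known from lymphocytes, had 22.5 and 20.6 FPKM in clone G2, 7.33 and 7.23 FPKM in clone G5, 10.94 and 10.98 FPKM in Nanog -/- ESC, 18.9 and 22.8 FPKM in WT MEF and 0 and 0.0927 FPKM in piPSC. WT iPSC had 1.86, 0.894 and 0.915 FPKM and WT ESC 1.39, 1.31, 0.877 and 0.529 FPKM. It was high both in the Nanog -/- samples and in fibroblasts, and rose by 2.59 ± 0.22 in the clones (adjusted p = 8.4e-08) and 2.98 ± 0.19 in Nanog -/- ESC (adjusted p = 3.9e-09).

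Serpina3m did not pass the test in either comparison. It ranged from 1.53 to 4.73 FPKM in the clones and from 1.35 to 1.61 FPKM in Nanog -/- ESC, and its highest sample was WT iPSC 1 with 9.21 FPKM, while the other WT iPSC and WT ESC samples had 0.643 to 2.31 FPKM. Between 6.9% (Serpina3n) and 19.1% (Serpina3m) of the 50-base words of these 4 genes occur in another gene. In WT MEF, which are C57/B6 cells kept in serum, Serpina3n and Serpina3i had lower FPKM than in every Nanog -/- sample. Fibroblast markers were higher in the Nanog -/- groups than in WT iPSC and WT ESC and higher in clone G2 than in clone G5. Their part in the changes of the Serpina3 genes was not tested.

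Serpine2, Serpinf1, Serping1 and Serpinh1 rose in both Nanog -/- comparisons with the code term, but JI samples of WT cells held as much as or more than some Nanog -/- samples of Serpinf1, Serping1 and Serpinh1. Serpine2, a thrombin and plasminogen activator inhibitor bound to the cell surface, had 122 and 130 FPKM in clone G2, 103 and 96.5 FPKM in clone G5 and 63.0 and 64.5 FPKM in Nanog -/- ESC. WT iPSC had 20.0 FPKM in the AC sample and 62.9 and 54.3 FPKM in the JI samples, and WT ESC 10.1 and 11.3 FPKM in AC and 49.1 and 46.0 FPKM in JI samples. All Nanog -/- samples stood above all WT iPSC and WT ESC samples, Nanog -/- ESC 1 only by a little. It rose by 2.46 ± 0.25 in Nanog -/- ESC (adjusted p = 8.3e-07; 2.57 in AC samples alone) and 2.69 ± 0.26 in the clones (adjusted p = 3.2e-07; 2.52 in AC samples alone). Without the code term the adjusted p was 0.198 in ESC and 0.117 in iPSC.

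Serpinf1, the anti-angiogenic pigment epithelium-derived factor, had 105 and 106 FPKM in clone G2, 55.0 and 55.9 FPKM in clone G5, 93.4 and 83.4 FPKM in Nanog -/- ESC, 30.6, 87.7 and 67.7 FPKM in WT iPSC (the first of these AC) and 24.2 and 25.2 FPKM in AC and 84.1 and 58.2 FPKM in JI samples of WT ESC. The groups overlapped across sample codes but not among AC samples. Serpinf1 rose by 1.91 ± 0.12 in Nanog -/- ESC (adjusted p = 3.7e-09) and 1.46 ± 0.12 in the clones (adjusted p = 7.6e-08), and without the code term the adjusted p in ESC was 0.196. Serping1, the inhibitor of the first complement proteases, had 22.1 and 24.2 FPKM in clone G2, 13.1 and 14.5 FPKM in clone G5, 13.1 and 13.6 FPKM in Nanog -/- ESC, 5.75 FPKM in AC and 14.8 and 13.7 FPKM in JI samples of WT iPSC, and 3.50 and 3.22 FPKM in AC and 14.7 and 14.6 FPKM in JI samples of WT ESC. It rose by 1.83 ± 0.17 in Nanog -/- ESC (adjusted p = 1.9e-07) and 1.90 ± 0.16 in the clones (adjusted p = 9.1e-08). Without the code term its adjusted p was 0.491 in ESC and 0.436 in iPSC.

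Serpinh1 had 167 and 159 FPKM in clone G2, 115 and 112 FPKM in clone G5, 175 and 173 FPKM in Nanog -/- ESC, 124, 116 and 121 FPKM in WT iPSC and 77.8, 68.6, 140 and 135 FPKM in WT ESC. Nanog -/- ESC lay above all WT ESC, while clone G5 lay just below the WT iPSC samples. It rose by 1.05 ± 0.17 in Nanog -/- ESC (adjusted p = 6.1e-05; 1.24 in AC samples alone) and by 0.46 ± 0.16 in the clones (adjusted p = 0.0179), where the levels in FPKM overlap. Col1a1, a main collagen of fibroblasts, had 278 to 303.5 FPKM in clone G2, 107 to 114 FPKM in clone G5, 208 to 213.5 FPKM in Nanog -/- ESC and 6.07 to 63.0 FPKM in WT iPSC and WT ESC. Serpine2, Serpinf1 and Serpinh1 were all abundant in WT MEF. The fibroblast markers were also higher in the Nanog -/- groups than in WT iPSC and WT ESC. Their sum was lower in clone G5 than in Nanog -/- ESC (662 to 665 against 1036 to 1056 FPKM). Serpinf1 and Serpinh1 were also lower in clone G5 than in Nanog -/- ESC, whereas Serpine2 was higher. The part of the markers in these changes was not tested.

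**Figure D4:**
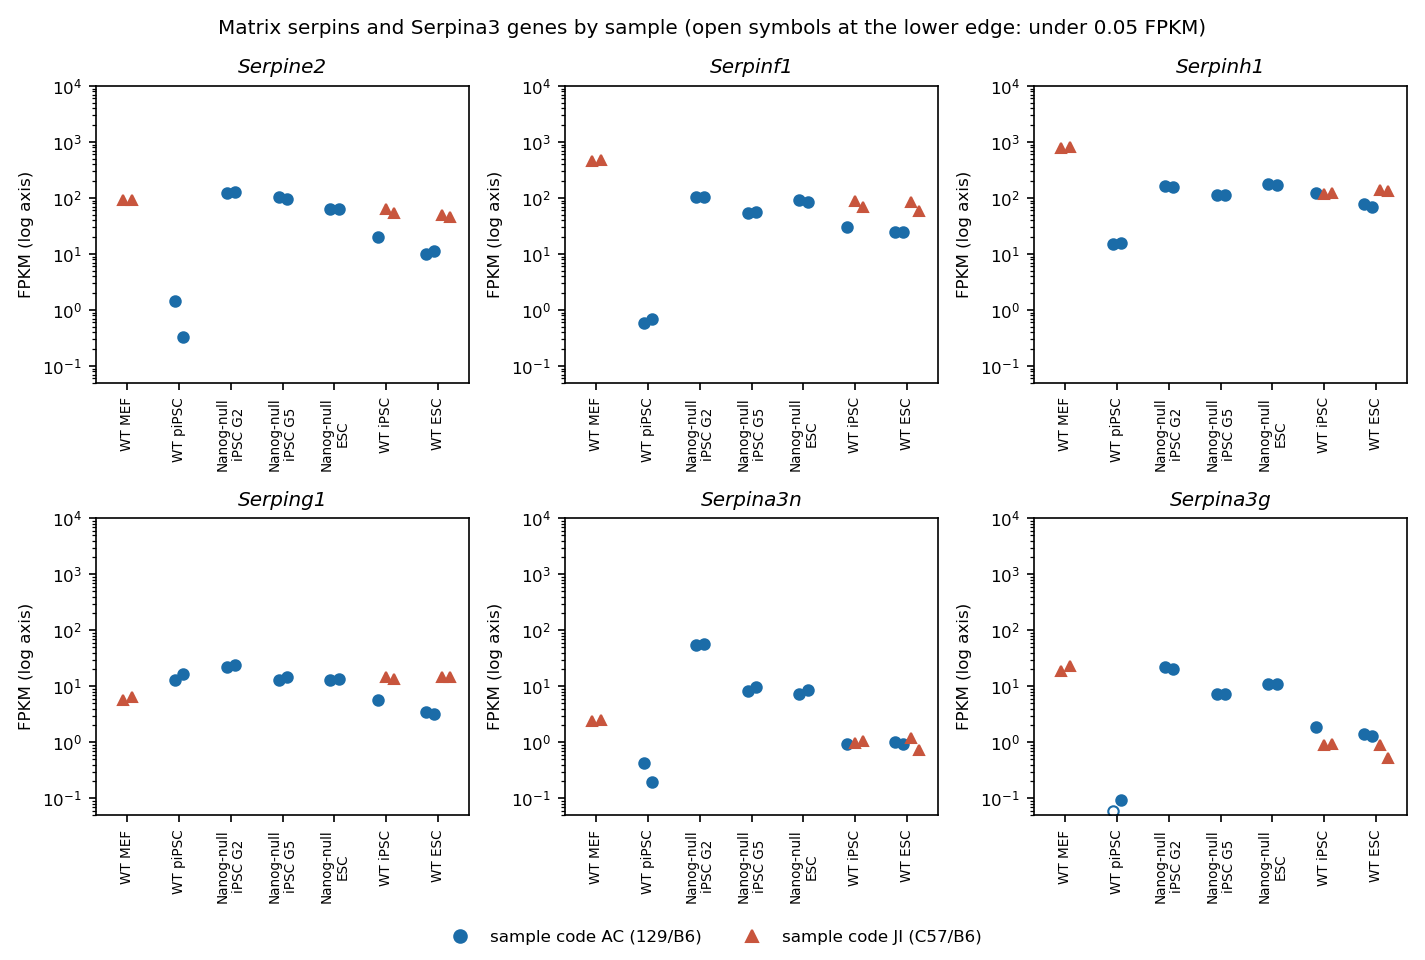
FPKM (log axis) of Serpine2, Serpinf1, Serpinh1, Serping1, Serpina3n and Serpina3g in each sample by group; circles are AC (129/B6) and triangles JI (C57/B6) samples, and the open symbol at the lower edge is 0 FPKM. In WT ESC and WT iPSC the triangles of Serpine2, Serpinf1 and Serping1 lie above the circles, whereas Serpina3n, at 0.738 to 1.19 FPKM in these groups, shows no such gap.

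Serpinb6a and Serpinb6c, intracellular inhibitors, were not called in either Nanog -/- comparison. Serpinb6a, which inhibits cathepsin G, had 68.8 and 66.5 FPKM in clone G2, 74.9 and 83.7 FPKM in clone G5, 65.3 and 59.7 FPKM in Nanog -/- ESC, 54.6 FPKM in AC and 198 and 186 FPKM in JI samples of WT iPSC, and 60.5 and 65.7 FPKM in AC and 187 and 149 FPKM in JI samples of WT ESC. Its log2 change was 0.18 ± 0.13 in Nanog -/- ESC (adjusted p = 0.258) and 0.31 ± 0.14 in the clones (adjusted p = 0.0558). Serpinb6c had 9.63 and 9.87 FPKM in clone G2, 13.4 and 14.0 FPKM in clone G5, 10.2 and 9.53 FPKM in Nanog -/- ESC, 14.3, 8.88 and 8.26 FPKM in WT iPSC and 7.13, 7.21, 7.64 and 7.01 FPKM in WT ESC. Its log2 changes were 0.32 ± 0.28 (adjusted p = 0.343) and -0.08 ± 0.27 (adjusted p = 0.813). Serpinb6b, at 1.86 to 2.97 FPKM in the Nanog -/- samples and 0.345 to 0.932 FPKM in WT iPSC and WT ESC, rose by 2.71 ± 0.26 in Nanog -/- ESC (adjusted p = 7.0e-07) and 2.88 ± 0.29 in the clones (adjusted p = 9.3e-07). Between 0.751% (Serpinb6a) and 9.92% (Serpinb6c) of the 50-base words of these 3 genes occur in another gene. The other genes called higher were low: Serpinb5 (0.547 to 0.848 FPKM in the clones) and Serpinb8 in both comparisons, the neuronal Serpini1 in Nanog -/- ESC, and Serpina1b and Serpinb2 in the clones. For Serpinb8, Serpinb2 and Serpina1b these calls come from the fit with the code term, and JI samples of WT cells held as much as or more than some Nanog -/- samples. Serpinb8 had 0.869 to 1.56 FPKM in the clones, against 0.0111 FPKM in the AC and 0.857 and 1.10 FPKM in the JI samples of WT iPSC. It had 0.762 and 0.457 FPKM in Nanog -/- ESC, against 0.116 and 0.406 FPKM in the AC and 1.56 and 2.75 FPKM in the JI samples of WT ESC. Serpinb2 had 0.0620 to 0.182 FPKM in the clones, against 0.0175 FPKM in the AC and 0.789 and 1.34 FPKM in the JI samples of WT iPSC. Serpina1b had 0 to 0.146 FPKM in the clones, against 0 FPKM in the AC and 0.0763 and 0.134 FPKM in the JI samples of WT iPSC.

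The Nanog -/- iPSC clones held more of the Serpinb9 copies than the Nanog -/- ESC. Of the 28 genes, 10 rose and none fell in the mean of the clones against Nanog -/- ESC, where 7.31% of all genes rose and 6.56% fell (13.9% called). At an unadjusted p under 0.05, 14 passed, but the share of all genes at that limit was not counted. All samples of this comparison carry AC codes. Copies b to g rose by 1.47 ± 0.13 (Serpinb9b, adjusted p = 3.3e-06) to 2.51 ± 0.19 (Serpinb9e, adjusted p = 1.5e-06), Serpina3n rose by 1.47 ± 0.16 (adjusted p = 2.1e-05), and Serpinb5, Serpinb9 and Serpine2 also rose. Serpine2 lost its call when any 1 of the 6 samples was left out (adjusted p from 0.0659 to 0.223). The count was 7 to 9 with 1 sample left out, 16 in AC samples alone and 0 without the code term. In that last fit the log2 change of Serpinb9e was again 2.51, with an adjusted p of 0.459. Of the 12 endoderm markers 7 were lower in the clones and none higher, with sums of 107 to 121 FPKM in clone G2, 98.1 to 101 FPKM in clone G5 and 175 to 176 FPKM in Nanog -/- ESC, and their part in these differences was not tested.

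The difference between the Nanog -/- effect in iPSC and that in ESC was tested as an interaction. It passed for 8 of the 28 genes, 7 with a larger and 1 with a smaller change in iPSC, where 5.47% and 9.79% of all genes passed in these directions (15.3% called). The count was 4 to 9 with 1 sample left out, the 4 without Nanog -/- ESC 2, and 0 without the code term. Serpina3n differed by 1.46 ± 0.27 (adjusted p = 0.00231; 1.60 in AC samples alone) and Serpinb9b by 1.88 ± 0.19 (adjusted p = 3.3e-05; 1.62 in AC samples alone). Without the code term their adjusted p was 0.228 and 0.15. Serpinb9e differed by 4.85 ± 0.70 (adjusted p = 5.7e-04), but this rests on the 10 and 4 fragments in the JI samples of WT ESC: in AC samples alone its adjusted p was 0.554, that of Serpinb9f 1 and that of Serpinb9g 0.526 with a log2 difference of -1.09.

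The clones differed from each other in opposite ways for the Serpina3 and Serpinb9 arrays. In clone G2 against clone G5, 5 genes rose and 5 fell, where 3.66% of all genes rose and 2.18% fell (5.84% called). Serpina3n rose by 2.62 ± 0.18 (adjusted p = 3.9e-07), Serpina3g by 1.59 ± 0.17 (adjusted p = 5.3e-05) and Serpina3i by 1.19 ± 0.17 (adjusted p = 5.4e-04), with the values of each sample given above and no overlap between the clones. Serpinf1 rose by 0.97 ± 0.13 (adjusted p = 2.7e-04) and Serping1 by 0.80 ± 0.16 (adjusted p = 0.00801). Serpinb9b, Serpinb9c, Serpinb9d, Serpinb9e and Serpinb9f fell, by 0.61 ± 0.14 (adjusted p = 0.0140) for Serpinb9b to 1.11 ± 0.22 (adjusted p = 0.0120) for Serpinb9c, and Serpinb9g changed by -0.73 ± 0.25 (adjusted p = 0.118). Each of these 5 lost its call with any 1 of the 4 samples left out, and Serping1 with any 1 but clone G2 replicate 1, which left 4 to 5 genes called; Serpina3n, Serpina3g, Serpina3i and Serpinf1 kept it. Without the code term 1 gene was called, although the log2 change of Serpina3g was again 1.59 (adjusted p = 0.726). Of the 15 fibroblast markers 12 were also higher in clone G2 and none lower. The trophoblast markers summed to 80.5 to 82.1 FPKM in clone G2 and 133 to 154 FPKM in clone G5, with none of 8 tested called, and the macrophage markers to 41.7 to 43.0 FPKM in clone G2 and 57.6 to 58.6 FPKM in clone G5, with 1 of 7 lower. The part of these 3 marker lists in the differences was not tested.

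In piPSC the Serpina1 copies were higher than in WT iPSC, while Serpinf1 and Serpine2 were lower. Of the 28 genes, 9 rose and 13 fell in piPSC against WT iPSC, where 27.5% of all genes rose and 41.2% fell (68.8% called), so that the shares of the Serpin genes lay near those of all genes. The median size of the log2 change was 3.49, against 1.02 over all genes. Serpina1b, Serpina1c, Serpina1d and Serpinb5 met the limit of 1 FPKM in piPSC only, so the choice of genes favored their rise. They are among the 9 that rose and enter this median. Serpina1e, a mouse copy of the liver elastase inhibitor alpha-1 antitrypsin, had 33.2 and 52.1 FPKM in piPSC, 0.0225, 0.166 and 0.117 FPKM in WT iPSC and at most 1.09 FPKM in all other samples. In fragments it had 3950 in piPSC and 1 in the AC sample of WT iPSC, a ratio of 1838 with a counting interval of 329.9 to 72610 (adjusted p = 1.8e-07). Serpina1b at 3.33 and 3.96 FPKM and Serpina1d at 3.52 and 4.19 FPKM in piPSC were at least 46.1-fold and 48.7-fold higher than in that WT iPSC sample, and Serpina1c, at 0.973 and 1.04 FPKM, at least 12.4-fold. In piPSC all 4 stood above every other sample of the series, which for Serpina1b, Serpina1c and Serpina1d follows in part from how they were chosen. Of the 50-base words of these 4 copies, 29.5% (Serpina1b) to 74.2% (Serpina1c) occur in another gene. Of the endoderm markers, Afp, Apoa1, Apob, Ttr, Sox17, Foxa2, Amn and Cubn averaged under 0.1 FPKM in piPSC. Of all 12, 2 rose and 5 fell against WT iPSC, and their sum was 20.7 to 20.8 FPKM in piPSC and 6.04 to 30.9 FPKM in WT iPSC.

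Serpini1, Serpinb5, Serpinb8 and Serping1 also rose in piPSC against WT iPSC. Serpini1, the neuronal inhibitor of tissue plasminogen activator, had 33.3 and 21.1 FPKM in piPSC, 1.89, 1.81 and 1.73 FPKM in WT iPSC and 0.549 to 2.90 FPKM in all other samples, and rose by 3.54 ± 0.27 against WT iPSC (adjusted p = 9.2e-09; 3.34 in AC samples alone). Serpinb5, or maspin, a non-inhibitory serpin of epithelia, had 4.98 and 4.70 FPKM in piPSC and at most 0.848 FPKM elsewhere, with 778 fragments against 0 in the AC sample of WT iPSC, so that it was at least 121-fold higher (120.7; adjusted p = 4.0e-08). Serpinb8 had 9.40 and 7.64 FPKM in piPSC, 0.0111, 0.857 and 1.10 FPKM in WT iPSC and 7.10 and 9.02 FPKM in WT MEF, and rose in piPSC (adjusted p = 1.4e-08). Serping1, at 12.9 and 16.7 FPKM in piPSC, rose by 1.53 ± 0.18 against WT iPSC (adjusted p = 1.2e-06; 1.40 in AC samples alone), though the JI samples of WT iPSC had 14.8 and 13.7 FPKM and the adjusted p without the code term was 0.851. Of 10 stratified epithelium markers 3 rose and none fell in the same comparison, where 27.5% of all genes rose and 41.2% fell. The share of these markers that rose lay near that of all genes. Their sum was 35.11 to 35.15 FPKM in piPSC and 8.11 to 66.5 FPKM in WT iPSC.

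Serpinf1, Serpine2, Serpinh1 and Serpinb6c fell in piPSC against WT iPSC. Serpinf1 had 0.584 and 0.685 FPKM in piPSC and changed by -5.40 ± 0.19 (adjusted p = 1.6e-12), Serpine2 had 1.42 and 0.326 FPKM and changed by -4.40 ± 0.34 (adjusted p = 1.2e-08), and Serpinh1 had 15.1 and 15.7 FPKM and changed by -2.78 ± 0.19 (adjusted p = 2.5e-09). Serpinb6c had 0.848 and 0.131 FPKM in piPSC and fell by 4.71 ± 0.40 (adjusted p = 6.1e-08). Serpinb6a, at 46.1 and 47.1 FPKM in piPSC, changed by -0.38 ± 0.15 (adjusted p = 0.0354), but in AC samples alone the log2 change was -0.04 (adjusted p = 0.650), and it lost its call without either piPSC sample or either JI sample of WT iPSC. Col1a1 was at 0.319 and 0.364 FPKM in piPSC. Of 15 fibroblast markers 11 fell and 2 rose, where 41.2% of all genes fell and 27.5% rose. The part of these markers in the changes of the serpins was not tested. With RLE in place of TMM scaling the median of all genes moved by 0.114 in this comparison and by 0.11 in that of WT MEF.

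**Figure D5:**
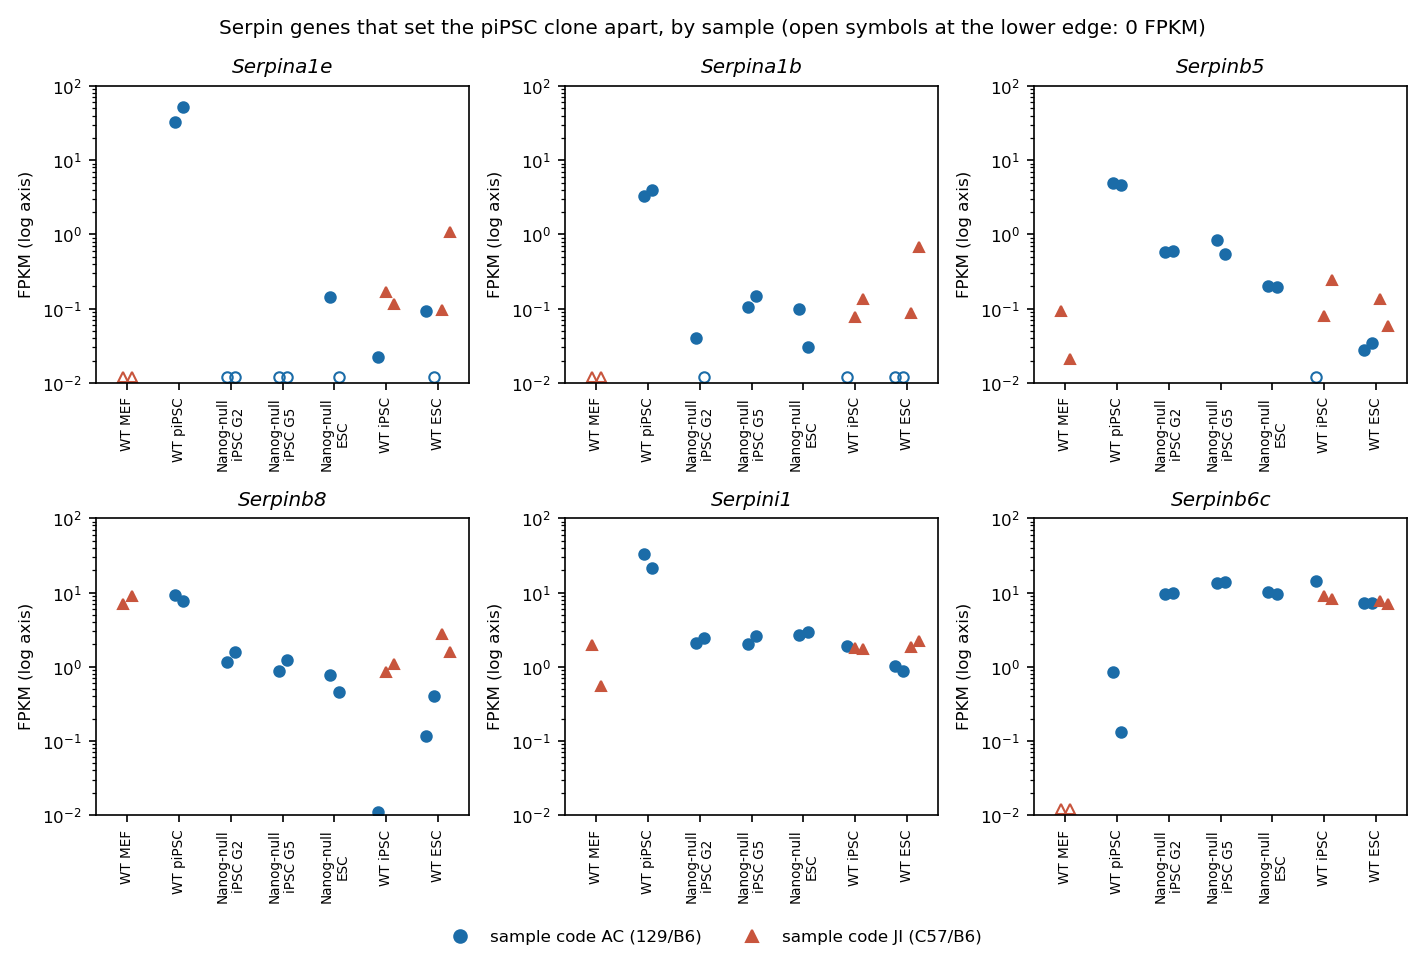
FPKM (log axis) of Serpina1e, Serpina1b, Serpinb5, Serpinb8, Serpini1 and Serpinb6c in each sample by group; circles are AC (129/B6) and triangles JI (C57/B6) samples, and open symbols at the lower edge are 0 FPKM. The 2 piPSC samples lie above all other samples for Serpina1e, Serpina1b, Serpinb5 and Serpini1, and beside WT MEF for Serpinb8; in WT MEF Serpinb6c is at 0.

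Fibroblasts were set apart by Serpinb2, Serpinf1 and Serpinh1. In WT MEF against WT ESC 11 of the 28 genes rose and 14 fell, where 37% of all genes rose and 41.2% fell (78.2% called), so most genes of any kind were called. The count was 18 without WT MEF 2. It was 17 in JI samples alone, 16 with a replicate block and 15 without the code term. Among the genes that fell, Serpina1b, Serpina1d, Serpina1e, Serpinb9c, Serpinb9e, Serpinb9f and Serpinb9g had 0 fragments in both WT MEF samples. No WT ESC sample held more than 11 fragments of any of them, so these calls lie near the floor. Serpinb9c had only 2 fragments, in WT ESC 3 (adjusted p = 0.0494). Serpinb2, an intracellular plasminogen activator inhibitor, had 73.2 and 75.4 FPKM in WT MEF and 0.0181, 0.0228, 0.718 and 0.612 FPKM in WT ESC, a rise of 6.63 ± 0.25 (adjusted p = 4.3e-12). It had 0 FPKM in both piPSC samples, 0.0620 to 0.182 FPKM in the Nanog -/- samples and 0.0175, 0.789 and 1.34 FPKM in WT iPSC, so fibroblasts stood alone. Serpinf1, at 462 and 485 FPKM in WT MEF, rose by 2.55 ± 0.12 (adjusted p = 1.6e-11), and Serpinh1, at 788 and 811 FPKM, by 2.63 ± 0.16 (adjusted p = 3.2e-10).

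Serpina3g rose by 4.70 ± 0.23 (adjusted p = 2.4e-11), Serpinb9b by 2.71 ± 0.15 (adjusted p = 1.2e-10) and Serpinb9 by 2.55 ± 0.20 (adjusted p = 7.4e-09) in WT MEF against WT ESC. Serpine2, at 92.6 and 90.7 FPKM in WT MEF, rose by 0.96 ± 0.25 (adjusted p = 0.00205; 0.0688 with a replicate block), and Serpinb8 by 2.58 ± 0.39 (adjusted p = 1.7e-05; 0.0594 with a replicate block). Serpinb6c was read at 0 FPKM in both WT MEF samples, against 140 fragments in the JI samples of WT ESC, at least 64.9-fold lower (adjusted p = 1.5e-07). Serping1, at 5.81 and 6.56 FPKM in WT MEF, fell by 1.15 ± 0.18 (adjusted p = 2.0e-05) with the code term and had an adjusted p of 0.442 without it. Serpinb6a, at 143 and 136 FPKM in WT MEF, changed by -0.49 ± 0.14 (adjusted p = 0.00386), but by 0.19 (adjusted p = 0.776) without the code term and by -0.33 in JI samples alone (adjusted p = 0.0662). Of 7 tested macrophage markers 6 rose and none fell in WT MEF, where 37% of all genes rose and 41.2% fell. Their part in the changes of these serpins, which went in both directions, was not tested.

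Few Serpin differences were called between WT iPSC and WT ESC. Of the 28 genes 1 passed, Serpinb9e, with 0.0181 to 0.107 FPKM in WT iPSC and 0 to 0.616 FPKM in WT ESC (log2 change -2.35 ± 0.66, adjusted p = 0.0413), where 8.69% of all genes were called, 6.88% higher and 1.81% lower. At an unadjusted p under 0.05, 11 passed, but the share of all genes at that limit was not counted. DESeq2 called 1 and limma 0. The call depended on the samples. In JI samples alone 0 Serpin genes were called, and 0 to 7 with 1 sample left out, the highest without WT ESC 3. The counts over all genes were then 3 and 44 to 3779. For Serpine2, the difference was 0.58 ± 0.20 (adjusted p = 0.0869), with a 95% interval of 0.18 to 0.98. Serpina3n differed by 0.01 ± 0.22 (interval -0.42 to 0.44) and Serpinh1 by 0.23 ± 0.13 (interval -0.03 to 0.49).

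Proteases and matrix genes that work with serpins were counted in the same fits. Of 19 tested genes of plasminogen activation and extracellular proteolysis, 17 rose and none fell in Nanog -/- ESC against WT ESC, where 30.3% of all genes rose and 27% fell, with a list median of 2.1 against 0.0242 over all genes. In the clones against WT iPSC the counts were also 17 and 0, where 27.9% of all genes rose and 31.8% fell, with a median of 1.58 against -0.0556. These are counts with the code term: the summed FPKM of the list was 697 to 728 in Nanog -/- ESC and 201 to 1505 in WT ESC, and 750 to 832 in the clones and 201 to 1422 in WT iPSC, so that the levels overlap. The thrombin receptor F2r rose by 2.38 ± 0.17 in Nanog -/- ESC (adjusted p = 1.6e-08) and 2.51 ± 0.17 in the clones (adjusted p = 8.8e-09), and the serine protease Prss23 by 2.82 ± 0.11 (adjusted p = 1.7e-11) and 2.32 ± 0.11 (adjusted p = 1.7e-10). Anxa2 and S100a10, which form a plasminogen receptor, had positive log2 changes of 2.18 ± 0.21 and 0.99 ± 0.16 in Nanog -/- ESC with the code term, but their pooled means ran the other way, with 224 FPKM of Anxa2 in Nanog -/- ESC and 382 FPKM in WT ESC, and 90.9 FPKM of S100a10 in Nanog -/- ESC and 236 FPKM in WT ESC. Of 20 collagen genes and collagen-folding partners of Serpinh1, 16 rose in each Nanog -/- comparison, with 0 and 1 falling. The fibroblast markers, which share the collagen genes, rose in 15 of 15 and 14 of 15 cases.

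A list of mainly granule, lysosomal and other intracellular proteases that intracellular serpins can meet held 14 tested genes. Of these, 5 rose and 2 fell in Nanog -/- ESC, and 5 rose and 1 fell in the clones. The share that rose thus lay near that of all genes. Cathepsin L rose by 1.57 ± 0.11 (adjusted p = 9.9e-09) and 2.03 ± 0.12 (adjusted p = 1.1e-09), and cathepsins D, B and Z rose in both comparisons. Of 10 tested genes of the complement and contact systems, 7 rose in each comparison, with 0 and 2 falling. Of all genes, 30.3% rose and 27% fell in Nanog -/- ESC, and 27.9% rose and 31.8% fell in the clones. The complement component C3 rose by 1.74 ± 0.33 in Nanog -/- ESC (adjusted p = 3.5e-04) and 3.89 ± 0.47 in the clones (adjusted p = 3.5e-06), and the Serping1 targets C1s and C1ra rose in both comparisons. In piPSC against WT iPSC the plasminogen list split into 7 that rose and 11 that fell, with a median of -2.46 against -0.252 over all genes, and the collagen list into 7 and 10, where 27.5% of all genes rose and 41.2% fell. In WT MEF against WT ESC the plasminogen list had 14 that rose and 4 that fell, and the collagen list 17 and 2, where 37% of all genes rose and 41.2% fell.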

How the data were processed

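RNA was extracted with Trizol from 17 samples in 7 groups and sequenced as TruSeq libraries, per the labels' protocols. The authors deposited 1 gene table per sample, with FPKM and raw fragment numbers per gene, per the file headers. The authors deposited these fragment numbers raw, as estimated counts per gene, per the file headers. Of these 97.5% to 98.8% were whole within 0.01 in each sample; those of all 28 Serpin genes were whole. Per the submitters' processing notes the tools were Cuffdiff 2.1.1, TopHat2 2.0.7, Bowtie2 2.0.5 and CASAVA, with the builds NCBIM37 and mm10, their roles not stated, and how reads shared by gene copies were assigned is not given in the sources used here. Of 28670 genes, 19 carried a status other than OK, none of them a Serpin.

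Fragment counts were rounded and tested with edgeR 4.0.16 (R 4.3.3; quasi-likelihood, TMM scaling, filterByExpr) in 1 fit of all 17 samples, with group and sample code prefix (AC or JI) as terms and Benjamini-Hochberg adjustment over 17446 genes at a threshold of 0.05. SE is the size of the log2 change divided by the square root of its F value. Folds against 0 fragments use a floor of 3 fragments over the WT samples of the same code, and counting intervals are 95%. The tests were tested on simulated data with known changes. Alternatives were RLE scaling, no filter on low counts, no code term, 1 code alone, a replicate block, DESeq2 1.42.0, limma 3.58.1 on log2(FPKM + 1), which understates changes of low genes, and leaving out each sample. Replicate numbers did not pair samples: of 10 pairs of groups, 1 had correlated deviations over 0.1 (range -0.064 to 0.144). TMM factors were 0.664 to 0.847 in WT iPSC and WT ESC of code JI and 1.02 to 1.17 in the others.

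The members and gene lists were chosen with earlier results of these data known. Of the 28 genes, 1 is counted but not reported here. Among the others, values of every sample are given for those with a group mean of at least 10 FPKM. Tests are named for at most 12 genes per comparison that passed and had a group mean of at least 5 FPKM, by size of change; other genes were named to account for all 28 after their values were seen. From each list, the 4 genes with the highest mean FPKM were eligible to be named.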

Additional observations from a re-analysis of the deposited data

Results flagged for a closer look

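WT ESC 4 stood apart from the other 3 WT ESC samples in all 4 Serpina1 copies, with 0.685 FPKM of Serpina1b, 0.117 of Serpina1c, 0.457 of Serpina1d and 1.09 of Serpina1e. These copies share sequence, so they are not independent of each other. WT ESC 3 stood apart in Serpinb9c with 0.153 FPKM. A gap test of this kind picks about 1 in 20 groups by chance, but Serpinb9c (2 fragments) and Serpina1c (1 fragment) were at 0 in the other 3 samples, where any value stands apart and that rate does not hold.

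The Nanog -/- effect differed between iPSC and ESC, by the interaction in edgeR's quasi-likelihood test, for 8 genes. The log2 difference of the effects, iPSC minus ESC, was 1.46 for Serpina3n, 1.74 for Serpinb8, 0.79 for Serpinb9, 1.88 for Serpinb9b, 4.85 for Serpinb9e, 4.40 for Serpinb9f, 3.75 for Serpinb9g and -0.45 for Serpinf1. The values of Serpinb9e, Serpinb9f and Serpinb9g rest on few fragments in WT cells. The call of Serpinf1 was lost with RLE scaling (adjusted p = 0.0729), with limma (0.166), with the replicate block (0.0591), without the code term (0.933) and with any 1 of 11 samples left out (0.0511 to 0.189).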

How the results depend on the processing

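For 64 gene results, 855 alternatives were run: 760 kept the direction and the side of the threshold, 93 kept the direction and lost the call, and 2 reversed. The reversals were Serpinb6a without the code term in WT MEF (0.19) and the interaction of Serpinb9g in AC samples alone (-1.09). The cause was not tested.

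Without the code term the number of Serpin genes called was 15 in WT MEF against WT ESC, 13 in Nanog -/- ESC against WT ESC, 13 in Nanog -/- iPSC against WT iPSC, 0 in Nanog -/- iPSC against Nanog -/- ESC, 1 in clone G2 against clone G5, 0 in WT iPSC against WT ESC and 0 for the interaction. The counts over all genes were then 5413 in Nanog -/- ESC, 12 in Nanog -/- iPSC against Nanog -/- ESC, 6 between the clones, 0 in WT iPSC against WT ESC and 2 for the interaction. In AC samples alone 16 Serpin genes and 5742 genes were called in Nanog -/- iPSC against Nanog -/- ESC, 3474 genes between the clones, 10 Serpin genes and 7658 genes in WT iPSC against WT ESC, and 7729 genes for the interaction. In WT iPSC against WT ESC, JI samples alone gave 0 Serpin genes and 3 genes, no filter 4 and 2348, and limma 0 and 156; limma gave 1686 genes for the interaction.

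With a replicate block, 16 Serpin genes were called in WT MEF against WT ESC, 2 Serpin genes and 2800 genes in WT iPSC against WT ESC, and 4084 genes for the interaction. The samples share only a number, so the block is no pairing. Serpinb8 (1.79) and Serpine2 (0.94) in WT MEF, Serpinb9e (-0.67) between the clones, and Serpinb9g (3.87) and Serpinf1 (-0.36) in the interaction lost their calls under it.

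With each sample left out in turn, Serpin genes and all genes called were 18 to 25 and 12372 to 13659 in WT MEF, 21 to 22 and 10297 to 11883 in piPSC, 18 to 21 and 7630 to 10984 in Nanog -/- ESC, 20 to 22 and 8704 to 10238 in Nanog -/- iPSC, 7 to 9 and 575 to 1560 in Nanog -/- iPSC against Nanog -/- ESC, 4 to 5 and 268 to 343 between the clones, 0 to 7 and 44 to 3779 in WT iPSC against WT ESC, and 4 to 9 and 1006 to 4591 for the interaction. A group left with 1 sample is assumed to vary like the others.

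Limits: strain and sample code cannot be told apart, each clone group is 1 clone, and FPKM of near-identical copies depends on how reads were assigned. Depth limits the WT levels of Serpinb9c to Serpinb9g, which rest on 0 to 10 fragments.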
